A study of Rattus norvegicus with 4 samples.

Results

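Of 11620 rat gene IDs, 460 (3.96%) stood at least 2-fold below vehicle with the drug UNC9994 at 12 h. In 107 of these the log2 ratio to vehicle was above -0.5 at 24 h, and they are described here. In 42 of the 107 the UNC9994 level was higher at 24 h than at 12 h by at least 0.5 (log2), with no such drop in DMSO. In 24 the DMSO level was lower by at least 0.5, with no such gain in UNC9994, and in 35 both were seen. The remaining 6 met neither bound. The members were chosen by the expression values themselves. An ID entered when its highest FPKM (fragments scaled for gene model length and library depth) was at least 2, its log2 ratio of UNC9994 over DMSO at 12 h was at most -1, and its log2 ratio at 24 h was above -0.5. Log2 ratios and log2 changes with time are on the log2(FPKM + 0.5) scale unless stated, which understates differences of IDs of low abundance. Folds of single IDs, and levels given as times vehicle, come from reads scaled by the divisor of each library that the FPKM imply. They are without the added 0.5.

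MMQ is an established line of prolactin-secreting cells from a rat pituitary tumour. All cultures were kept in DMEM/F12 medium with 2.5% fetal bovine serum and 15% horse serum, and received 15 µM UNC9994 or the solvent DMSO for 12 h or 24 h. RNA sequencing gave 1 library for each of these 4 combinations, so no level below has a replicate error. The rule drew on every library, so no expression value of the members was left for a test, and all of them are given as descriptions. Where reads are given, they were recovered from the FPKM, and intervals on them (95%) cover counting error only, not the spread between cultures.

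Lactotrophs, the prolactin-secreting cells of the pituitary, carry the dopamine D2 receptor, through which dopamine restrains prolactin release. UNC9994 is a D2 ligand described as biased towards beta-arrestin over G protein signalling. The amount of an RNA reflects its synthesis and its decay, and a ratio between a treated and a vehicle library can return to balance through either library. The files pair none of the IDs with a gene name, and of the 47357 entries in the rat gene table used here, 0 carry an Ensembl number. Gene functions, pathway lists, lactotroph markers and promoter sequences of the members are therefore not analysed here, and 4 IDs are printed. The 4 libraries held 17433867 to 21728374 recovered reads. Fewer cells with an RNA and less RNA per cell cannot be told apart in such bulk samples.

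Each ratio was split into its parts: the gain of the ratio from 12 h to 24 h equals the log2 change in UNC9994 minus the log2 change in DMSO. Among the 107 members the median ratio was -1.48 at 12 h and 0.05 at 24 h. The median change with time was 1.00 in UNC9994 and -0.60 in DMSO. A level at least 0.5 higher at 24 h in UNC9994 was seen in 77 members, against 4.83% of all 11620 eligible IDs. A level at least 0.5 lower at 24 h in DMSO was seen in 59 members, against 2.99% of all eligible IDs. Since the rule used these libraries, the excess over the background is built in, but it does not fix which of the libraries carries it. The UNC9994 gain exceeded the DMSO drop, both taken with their sign, in 67 members (62.6%), against 49.7% of eligible IDs and 69.7% of the 353 other IDs 2-fold lower at 12 h. Beyond counting error, only the UNC9994 gain was seen in 26 members, only the DMSO drop in 26 and both in 27. Among the 55 members with at least 50 reads in their deepest library, UNC9994 was higher at 24 h beyond counting error in 36. DMSO was lower beyond counting error in 38 of the 55. No share over all eligible IDs is given beside counts by counting interval, here or below. Such counts are therefore not read as a trait of the members.

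**Figure D1:**
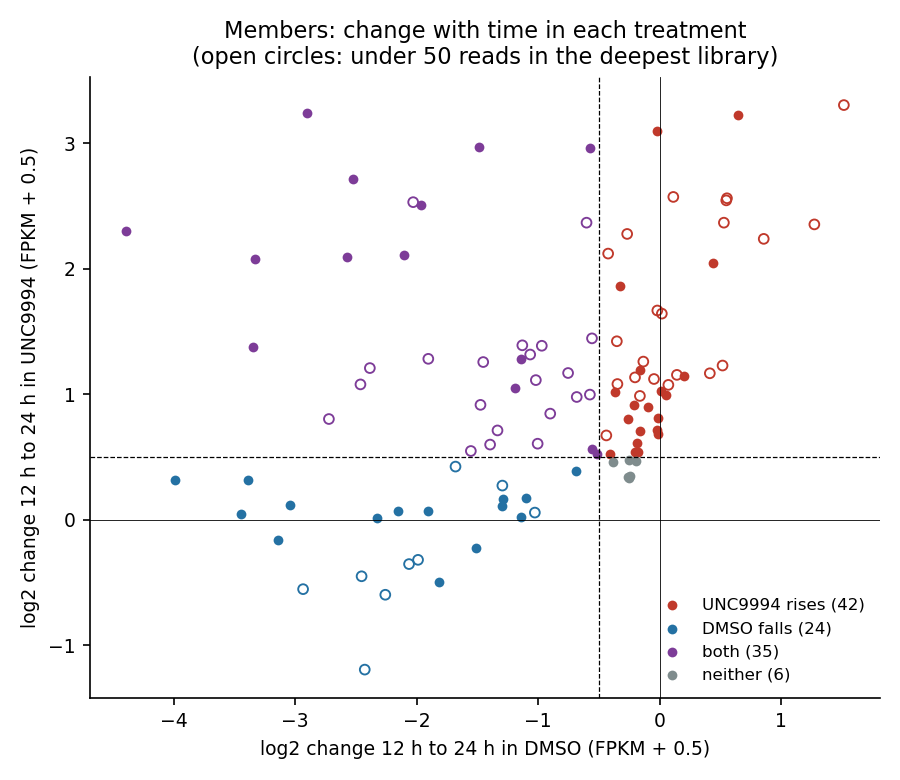
Log2 change from 12 h to 24 h in DMSO (horizontal axis) and in UNC9994 (vertical axis) for the 107 members, coloured by class, with dashed lines at -0.5 and 0.5. The 42 members of the red class lie to the right of the vertical dashed line, the 24 of the blue class lie below the horizontal one, and the 35 in the upper left moved in both libraries.

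The first class held 42 members (39.3%), against 4.26% of all eligible IDs. In these 42 the level in UNC9994 was higher at 24 h by at least 0.5 while the DMSO level had not dropped by as much. The DMSO level was itself higher by at least 0.5 in 8 of them. The median level was 4.62 FPKM in DMSO at 12 h and 5.44 in DMSO at 24 h, against 1.48 in UNC9994 at 12 h and 4.72 in UNC9994 at 24 h. By these medians the UNC9994 12 h library was the low one. ENSRNOG00000046094, with an implied gene model of 1642 bases, was at 13.1 FPKM in DMSO at 12 h and 12.9 in DMSO at 24 h. It was at 1.29 FPKM in UNC9994 at 12 h and 14.7 in UNC9994 at 24 h, with 431, 376, 48 and 520 reads in the same order. It was 10.2-fold lower than vehicle at 12 h (7.55 to 14.0) and 1.14 times vehicle at 24 h (0.999 to 1.31), after an 11.5-fold higher level in UNC9994 (8.52 to 15.7). The other libraries of this ID were close together and the drug library at 12 h stood apart.

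ENSRNOG00000050855, with an implied gene model of 1032 bases, followed the same course with an added increase in vehicle. Its levels were 11.6 FPKM in DMSO at 12 h, 18.4 in DMSO at 24 h, 1.32 in UNC9994 at 12 h and 16.6 in UNC9994 at 24 h, from 240, 338, 31 and 367 reads. Its drug level at 12 h was 8.79-fold below vehicle (6.03 to 13.2), and 0.898 times vehicle at 24 h (0.772 to 1.04). The UNC9994 level was 12.5-fold higher at 24 h than at 12 h (8.67 to 18.7), and the DMSO level 1.59-fold higher (1.34 to 1.88). The member of this class with the most reads was at 363 FPKM in DMSO at 12 h, 357 in DMSO at 24 h, 160 in UNC9994 at 12 h and 264 in UNC9994 at 24 h. Its 24 h ratio was -0.43, just above the limit of the rule. Among the 20 members of the class with at least 50 reads in their deepest library, the 24 h ratio had a median of -0.40 and 13 were still below vehicle beyond counting error.

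The second class held 24 members (22.4%), against 2.42% of all eligible IDs. In these 24 the DMSO level was lower at 24 h by at least 0.5 and the UNC9994 level had not come up by as much. The UNC9994 level was itself lower by at least 0.5 in 3 of them. The median level was 5.87 FPKM in DMSO at 12 h and 0.831 in DMSO at 24 h, against 0.875 in UNC9994 at 12 h and 0.891 in UNC9994 at 24 h. By these medians the DMSO 12 h library was the high one, and the drug level stayed where it was. ENSRNOG00000050877, with an implied gene model of 1005 bases, was at 19.0 FPKM in DMSO at 12 h and 0.728 in DMSO at 24 h. It was at 1.05 FPKM in UNC9994 at 12 h and 1.44 in UNC9994 at 24 h, with 383, 13, 24 and 31 reads in the same order. Its DMSO level was 26.1-fold lower at 24 h than at 12 h (15.1 to 49.5), while its UNC9994 level was 1.37 times as high (0.776 to 2.43). It stood 18.1-fold below vehicle at 12 h (12.0 to 28.6) and at 1.97 times vehicle at 24 h (1.00 to 4.10).

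ENSRNOG00000045695, with an implied gene model of 2207 bases, had 268 reads in DMSO at 12 h and 5, 1 and 7 reads in DMSO at 24 h, UNC9994 at 12 h and UNC9994 at 24 h. Its levels were 6.07, 0.128, 0.0199 and 0.148 FPKM in that order. The level in DMSO was 47.6-fold lower at 24 h (20.1 to 148). The 24 h libraries did not differ beyond counting error, with UNC9994 at 1.16 times vehicle (0.316 to 4.62). The best covered member of this class held 1337, 479, 625 and 637 reads in DMSO at 12 h, DMSO at 24 h, UNC9994 at 12 h and UNC9994 at 24 h. In FPKM this was 86.3, 34.8, 35.5 and 38.3, so 3 libraries stood within a narrow band and the DMSO 12 h library lay above them.

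**Figure D2:**
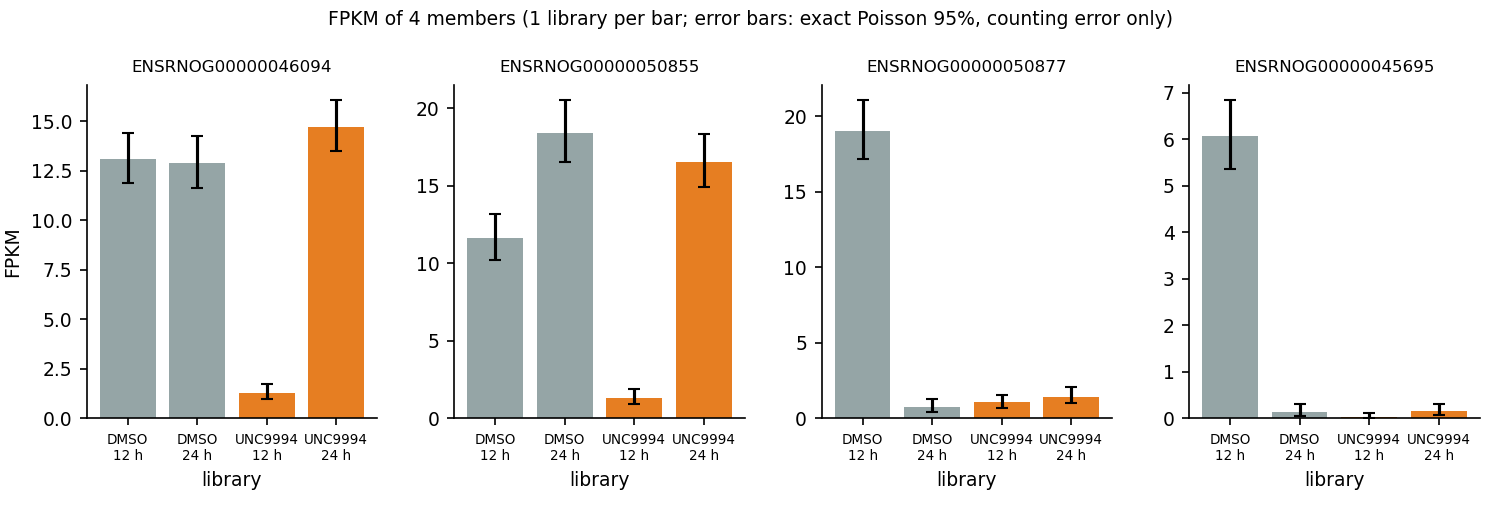
FPKM of the 4 printed IDs in each library, 1 library per bar, on linear axes from 0 that differ between panels, with exact Poisson 95% intervals for counting error. In the left pair the UNC9994 12 h bar is low (1.29 and 1.32 FPKM) beside 3 high bars, and in the right pair the DMSO 12 h bar is high (19.0 and 6.07 FPKM) beside 3 low bars.

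In the third class, 35 members (32.7%), DMSO was lower and UNC9994 higher at 24 h, each by at least 0.5, a combination found in 0.568% of eligible IDs. The rule favours this combination, and it was also frequent in the mirror set, 86 IDs with a ratio of at least 1 at 24 h and under 0.5 at 12 h. Of the 86, 36.0% were in this class, 31.4% in the first and 30.2% in the second, and 13 of the 86 are members. Median levels were 5.36 FPKM in DMSO at 12 h, 2.25 in DMSO at 24 h, 1.09 in UNC9994 at 12 h and 4.12 in UNC9994 at 24 h. The most abundant of the 107 members was of this kind. It was at 825 FPKM in DMSO at 12 h, 362 in DMSO at 24 h, 312 in UNC9994 at 12 h and 647 in UNC9994 at 24 h, from 15367, 5985, 6585 and 12919 reads. The vehicle at 12 h and the drug at 24 h were the high libraries, and the other two were lower.

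This crossing went furthest in 13 members (12.1%) whose UNC9994 level was below vehicle by 2-fold or more at 12 h and above it by 2-fold or more at 24 h. Among all eligible IDs, 1.8% were 2-fold higher at 24 h. Of the 13, 7 had at least 50 reads in their deepest library, all 7 from the third class, and each of the 7 was above vehicle at 24 h beyond counting error. The deepest of them held 2660 reads in DMSO at 12 h, 213 in DMSO at 24 h, 364 in UNC9994 at 12 h and 1541 in UNC9994 at 24 h. Its ratio was -2.95 at 12 h and 2.45 at 24 h. The next held 1009, 153, 216 and 1357 reads in the same order (145, 24.8, 27.3 and 181 FPKM), with ratios of -2.39 and 2.85. For the 7 together the 24 h ratio lay between 2.22 and 3.17. Across all 11620 eligible IDs, the widest gap between the 4 sorted levels placed the DMSO 12 h and UNC9994 24 h libraries above the others in 199 IDs. The reverse arrangement, DMSO at 24 h and UNC9994 at 12 h above the others, occurred in 217.

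**Figure D3:**
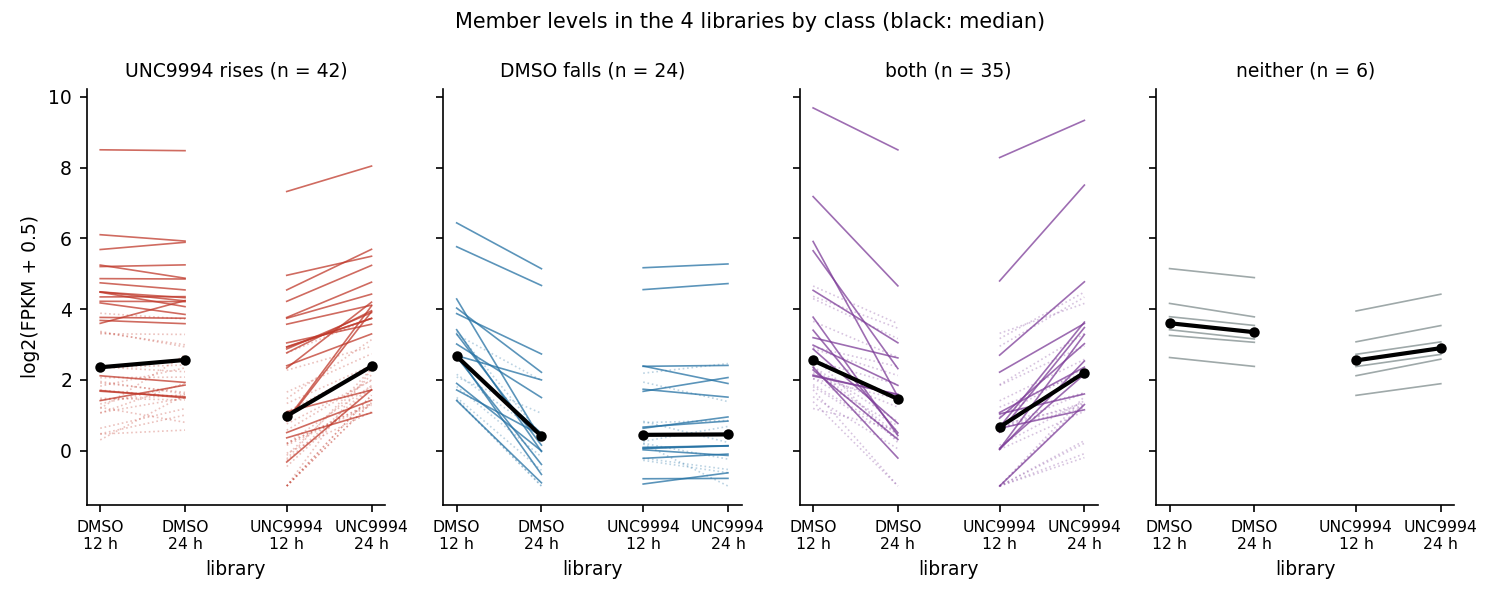
Level of every member as log2(FPKM + 0.5) in the 4 libraries, in 1 panel per class, with lines joining 12 h to 24 h within a treatment, dotted and pale for members under 50 reads, and the class median in black. In the first panel the median goes from 1.48 to 4.72 FPKM in UNC9994, in the second from 5.87 to 0.831 in DMSO, and in the third it moves in both treatments, from 5.36 to 2.25 FPKM in DMSO and from 1.09 to 4.12 in UNC9994.

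In the 6 members of neither class the shifts were small, with median levels of 11.8 FPKM in DMSO at 12 h, 9.78 in DMSO at 24 h, 5.40 in UNC9994 at 12 h and 7.01 in UNC9994 at 24 h. Their median 24 h ratio was -0.47, close to the limit of the rule.

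The widest gap also gave a view that does not depend on the bound of 0.5. It drew on the same 4 libraries as the rule, so differences from all eligible IDs are partly built in. Under the rule, UNC9994 at 12 h could not be the highest library. It left the UNC9994 12 h library alone at the bottom in 55 members (51.4%) and the DMSO 12 h library alone at the top in 33 (30.8%). It paired DMSO 12 h with UNC9994 24 h above the rest in 14, set the vehicle libraries above the drug libraries in 4, and left DMSO 24 h alone at the bottom in 1. Among all eligible IDs, the first arrangement occurred in 9.72% and the second in 10.2%. DMSO 12 h and UNC9994 24 h lay above the rest in 1.71%. The vehicle libraries lay above the drug libraries in 15.1%, and DMSO 24 h was alone at the bottom in 7.73%. In 77 members the highest of the 4 libraries was DMSO at 12 h, in 17 it was UNC9994 at 24 h and in 13 DMSO at 24 h. DMSO at 12 h was highest in 71.96% of members, 67.4% of the 353 other IDs 2-fold lower at 12 h and 31.1% of eligible IDs. UNC9994 at 24 h was highest in 22.7% of eligible IDs and DMSO at 24 h in 21.8%. A higher UNC9994 level at 24 h was seen in 98 members (91.6%), against 75.6% of the other 353 and 52.1% of eligible IDs. A gain of at least 0.5 was seen in 77 members (71.96%), against 35.7% and 4.83%, while 30 members had no such gain. The label "recovering" describes the 77 by this bound, of which 35 also had the DMSO drop. The UNC9994 gain was beyond counting error in 31 of the 42 without that drop and in 18 of the 35. Of the 42, 22 had under 50 reads in their deepest library and 13 were still below vehicle at 24 h beyond counting error. Of the 35, 21 had under 50 reads and 0 were below vehicle in this way.

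At 24 h the members ranged from slightly below vehicle to far above it. By counting intervals, 18 were below vehicle at 24 h, 15 were above it and 74 spanned no difference. For these and the following interval counts, no share over all eligible IDs is given. The 74 include 50 of the 52 members with under 50 reads in their deepest library, where smaller differences were not detectable, and 1 of these had no reads at 24 h. Among the 55 deeper members, 18 were below, 13 above and 24 spanned no difference, and their median 24 h ratio was -0.13, against 0.05 over all 107. The 12 h level was below vehicle beyond counting error in 81 members, and 66 members showed both that and a higher ratio at 24 h than at 12 h. Of the 55 deeper members 54 did so, and of the 52 shallower ones 12. The rule selected on these same values, so the counts show where reads sufficed and test neither the gap nor the gain.

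The members held few reads and short gene models. Their median length implied by the FPKM was 435 bases, against 2081 for all eligible IDs, and 45 members (42.1%) had at most 200 bases, against 5.88%. The median read number in the deepest library was 55, against 792. Of the eligible IDs of at most 200 bases, 6.59% were members. Of those over 200 and up to 1000 bases 1.41% were, and of those over 1000 bases 0.419%. By depth, 6.14% of IDs under 50 reads, 0.943% of those with 50 to under 500 reads and 0.303% of those with 500 or more were members. The part of length and of reads in this was not tested. Of the 45 short members, 43 had under 50 reads and 8 had counting intervals clear of no change for both the 12 h gap and the later gain. Of the 62 longer members 58 did, the rule having selected for both.

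Zeros were frequent among the short members. In UNC9994 at 12 h, 12 members were listed at 0, all of at most 200 bases. The lowest 12 h ratio of all, -6.91, came from a model of 71 bases with 85 reads in DMSO at 12 h, 0 in UNC9994 at 12 h and 3 in each 24 h library. With its UNC9994 level at 12 h set to a floor of 3 reads, it was 32.2-fold lower than vehicle. This value depends on the floor. By counting error alone, its 12 h level lay between 0 and 0.0391 times vehicle. For 6 of the 12, DMSO at 12 h also had at most 3 reads, and no fold is given. With listed zeros at this floor, and without members at or under it in both libraries, the median ratio was -1.43 at 12 h and 0.05 at 24 h, and the median change was 0.87 in UNC9994 and -0.59 in DMSO.

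**Figure D4:**
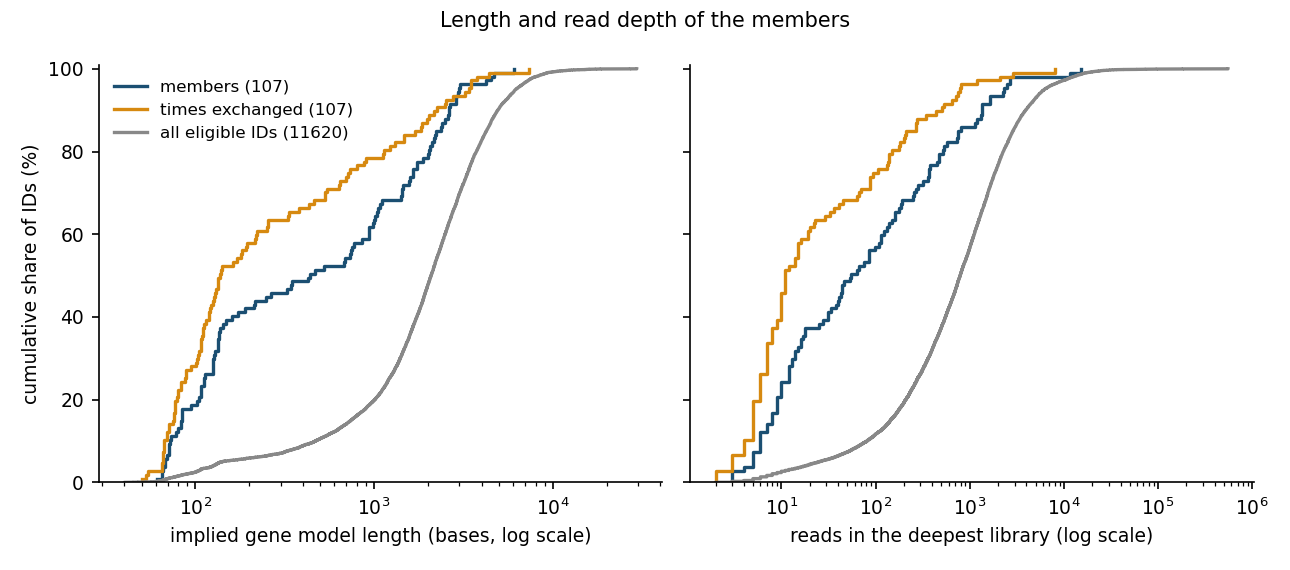
Cumulative share of IDs by implied gene model length in bases (left) and by reads in the deepest library (right), both on log axes, for the 107 members, the 107 IDs found with the times exchanged and all 11620 eligible IDs. Both sets of 107 lie to the left of all eligible IDs, with median lengths of 435, 138 and 2081 bases and median reads of 55, 11 and 792.

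The same rule with the times exchanged, a ratio of at most -1 at 24 h and above -0.5 at 12 h, also found 107 IDs. Their median ratio was 0.20 at 12 h and -1.57 at 24 h, and their highest library was DMSO at 24 h in 82. They were shorter than the members, with a median of 138 bases, and shallower, with a median of 11 reads in the deepest library and 62 IDs of at most 200 bases. At least 50 reads were reached by 34 of them, against 55 members. In 42 of them, UNC9994 was below vehicle at 24 h and the ratio was lower at 24 h than at 12 h, both beyond counting error. The same with the times exchanged was found in 66 members. With the sign reversed, 135 IDs were at least 2-fold higher at 12 h and under 0.5 at 24 h. Each rule selected for its own pattern, so these counts test nothing, and no test sets the members apart from these sets.

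**Figure D5:**
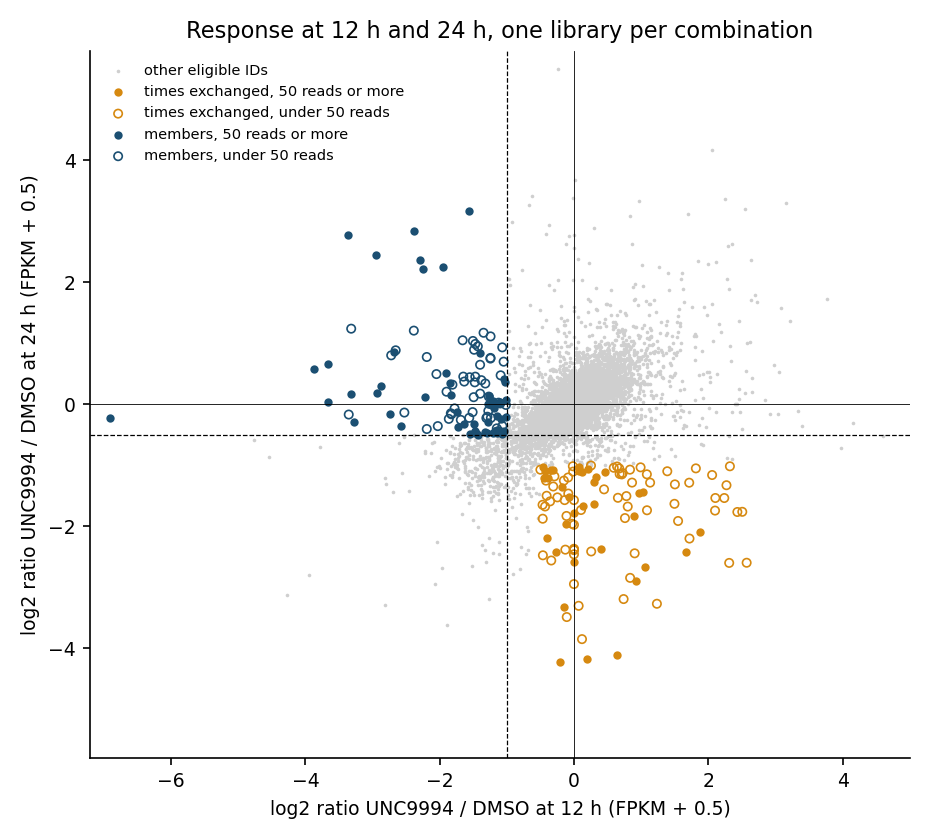
Log2 ratio of UNC9994 over DMSO at 12 h (horizontal axis) and at 24 h (vertical axis) for 11620 eligible IDs, with the members in blue, the IDs found with the times exchanged in orange, and open circles for IDs under 50 reads. Dashed lines mark the limits of the rule at -1 and -0.5, and 7 filled blue points stand above 2 on the vertical axis.

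Of the 460 IDs at least 2-fold lower at 12 h, the other 353 kept a 24 h ratio of at most -0.5, and 159 of those were still at least 2-fold lower. In these 353 the median level was 15.6 FPKM in DMSO at 12 h and 15.1 in DMSO at 24 h, so vehicle hardly moved, while UNC9994 went from 5.63 to 7.20 FPKM. A DMSO level lower by at least 0.5 was seen in 22 of the 353, against 59 of the 107 members. A UNC9994 gain of at least 0.5 was seen in 126 of the 353 (35.7%), against 77 members. The share in the first class was 34.8% of the 353 and 39.3% of the members. The 353 had a median length of 2197 bases, close to the 2081 of all eligible IDs. Short and shallow IDs were still more frequent among them. At most 200 bases were held by 9.63% of the 353, against 5.88% of eligible IDs. Under 50 reads in the deepest library were held by 12.2%, against 7.29%. Among IDs 2-fold lower at 12 h, members made up 57.0% of those of at most 200 bases, 33.3% of those over 200 and up to 1000 bases and 12.5% of the longer ones.

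The limits of the rule cut through a continuum. The 3 members nearest the 12 h limit had ratios of -1.02, -1.01 and -1.01, and the 3 IDs just outside had -0.99, -0.99 and -0.99. At the 24 h limit the nearest members had -0.50, -0.49 and -0.49, and the nearest IDs outside -0.51, -0.51 and -0.50. Within 0.1 of the limits lay 15 members at 12 h and 17 at 24 h.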

How the data were processed

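Oligo(dT)-selected RNA, per the labels' protocols, was sequenced from 4 libraries, 1 per treatment and time. Per the submitters' processing notes, CASAVA, TopHat2 2.0.7, Bowtie2, HTSeq and build Rnor 6.0 were used. Roles and annotation release: not given in the sources used here. Values are FPKM per the file headers, as deposited by the authors. After removal of 1209 exact repeats, 33833 of 35042 rows remained, 32883 with Ensembl IDs. Median-of-ratios factors of the deposited FPKM were 1.002 in all 4 libraries, so the values were already level on this scale.

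Reads were recovered with Python 3.11.15 and scipy 1.17.1. Relative divisors of the libraries came from the most frequent exact ratio of low FPKM. The divisors were not the totals of recovered reads. Those totals were 99.6% of the divisor in DMSO at 12 h and 98.2% in DMSO at 24 h. They were 95.6% in UNC9994 at 12 h and 98.6% in UNC9994 at 24 h. The shortest length of at least 40 bases was taken that made all reads of an ID whole, with a tolerance of 0.001 reads and 1e-08 relative to the count. This gave whole reads for each of the 20297 IDs detected in any library. A shared factor of all reads of an ID would go unseen. The recovery was tested on simulated data. Fold intervals are exact binomial, and those of the change in ratio are conditional exact, or log-normal where every count passed 500.

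The members and lists were chosen with earlier results of these data known. With no gene names, the planned 34 gene lists and 10 motifs were not analysed here. The naming rule allowed at most 4 IDs. Those printed have the largest gain in ratio among members with at least 100 reads, 2 from the first class and 2 from the second, a choice made after the data were seen, as were the bounds of 200 bases and 50 reads. Other members are described without ID. Alternatives were other pseudocounts, filters, scalings, limits and class bounds. Whether libraries came from separate cultures is not stated.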

Additional observations from a re-analysis of the deposited data

Results flagged for a closer look

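The 13 members below vehicle by 2-fold or more at 12 h, and above it by 2-fold or more at 24 h, moved in opposite directions at the times compared. With 1 library behind each value, the difference between the times was not tested. Of the 13, 6 had under 50 reads in their deepest library.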

How the results depend on the processing

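With 1 library per combination no library could be left out and no interval covers the spread between cultures. No paired analysis was possible because each group holds 1 library. The alternatives gave 95 values for the counts, shares and medians. Of these, 71 kept within 1.5 times a count or within the interval of a share or median. Those intervals were taken over the 107 IDs, which are not replicates, and serve only as a yardstick. Many alternatives also picked subsets of the 107, so closeness to the reported values is partly built in. Among the medians, that of the 24 h ratio changed sign, from 0.05 to -0.13 with at least 50 reads and to -0.09 over 200 bases. All 32 alternative ratios of the 4 printed IDs stayed within their counting intervals. Some of these were wide. That of the 12 h ratio of ENSRNOG00000045695, with 1 read in UNC9994, ran from -8.97 to -1.17. It so held a move from -3.66 to -5.68 with a pseudocount of 0.1. Median-of-ratios scaling could move nothing, since its factors were equal, so its values among the 71 and the 32 are no check. Total-read scaling found 99 members, all among the 107.

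The number of members was 62 with a highest FPKM of at least 5, 206 with no filter, 50 with a 12 h ratio of at most -1.5, 59 with a 24 h ratio above 0, and 66 where counting intervals excluded no change. It was 55 with at least 50 reads and 62 over 200 bases, bounds chosen after seeing the data. Pseudocounts of 0.1 and 1 found 123 and 102, of which 99 and 89 were among the 107. The median change in UNC9994 was 1.19 with a pseudocount of 0.1, 1.28 with the stricter 12 h limit, 0.68 with at least 50 reads and 0.70 over 200 bases. The median 12 h ratio was -1.34 with no filter and -2.12 with the stricter 12 h limit. The median change in DMSO was -1.75 with that limit and -1.19 with a 24 h ratio above 0. The median 24 h ratio was 0.50 with a 24 h ratio above 0 and -0.13 with at least 50 reads, as given above.

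With no filter 33.98% of members were in the second class (DMSO drop). With a 24 h ratio above 0, 22.03% were in the first, 52.5% in the third and 0% in neither. A class bound of 0.25 put 49.5% in the third and 0% in neither, and the stricter 12 h limit left 0% in neither. Beyond what each setting admits, the cause was not tested.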

Other observations

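Among 613 IDs without an Ensembl number and with a highest FPKM of at least 2, which the rule left out, 9 (1.47%) met the same limits. Of the 9, 3 were in the first class (UNC9994 gain), 3 in the second (DMSO drop) and 3 in the third (both). At least 50 reads in the deepest library were held by 6 of the 9. With the times exchanged, 7 of the 613 met the limits.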
